A study of Mus musculus with 48 samples.

Results

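The comparison described here is between signal joints made without Ku70 and with it, read from the signal end of the Jκ1 break in arrested mouse pro-B cells. It was chosen by the sample labels: 3 *Ku70-/-* libraries and 3 WT libraries, 6 of the 48 in the series, all from *vAbl* cells given STI-571 (3 µM, 96 h) with DMSO, the solvent of the inhibitors used elsewhere in the series. *vAbl* cells are progenitor B cells transformed by the Abelson kinase. STI-571 blocks that kinase, arrests the cells in G0-G1 and lets RAG1/2 cut the Igκ locus. The *Ku70-/-* and WT lines are each a single clone, so the genotype and the clone cannot be told apart. The lists hold DNA junctions only, so neither the pro-B label nor the loss of Ku70 could be checked from them.

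RAG cuts at a recombination signal sequence, which is a heptamer and a nonamer with a spacer between them. Each cut leaves a blunt signal end, which starts at the heptamer, and a hairpin coding end, which carries the gene segment. In classical end joining the Ku70/Ku80 ring binds both ends first, and signal ends are then sealed heptamer to heptamer with little or no loss. Alternative end joining works without Ku, on ends that have been resected, and often aligns them on short stretches of shared bases (microhomology). Deletional Vκ segments point the same way as Jκ, and their signal joint closes the excised DNA into a circle. Inversional Vκ segments point the other way, and their signal joint stays in the chromosome. A hybrid joint, of the signal end to a coding end, has the reverse outcome at each kind of site.

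The bait end is shown first because every joint below starts from it, followed by the signal end of Igkv1-135, the Vκ site with the most distinct signal joints in the *Ku70-/-* libraries. Capitals mark the nonamer and heptamer in both. The first line reads toward the break at chr6:70672517-70672555 (mm9, plus strand), next to the Jκ1 segment (Igkj1, ENSMUSG00000076604.1, chr6:70672556-70672593), with a 23-bp spacer. The second reads away from the break at chr6:67560503-67560530 (plus strand), directly after the Igkv1-135 coding segment, with a 12-bp spacer.
Jκ1 signal end: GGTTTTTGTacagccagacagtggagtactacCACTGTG
Igkv1-135 signal end: CACAGTGattcagacccgaACAAAAACT

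The arrested WT libraries listed from 339201 to 352630 junctions, of which 95.5 to 95.8% lay within 200 bp of 1 of 133 Vκ break sites (59 deletional, 74 inversional). The *Ku70-/-* libraries listed 176513, 188052 and 192122 junctions, of which 80.4%, 75.8% and 77.1% lay at these sites. The cycling libraries with the same bait held 19376 to 21243 joints at Vκ sites in WT and 1987 to 4022 in *Ku70-/-*. Signal joints numbered 332294, 319439 and 317944 in the WT libraries and 74245, 74934 and 77247 in the *Ku70-/-* libraries. The files keep copies of the same molecule, so the main shares are given for copies as listed and for distinct junctions, and finer measures for distinct junctions unless copies are named. Distinct junctions are those that differ in prey position, prey strand, bait end or overlap. WT held 1882, 1501 and 1457 distinct signal joints. *Ku70-/-* held 523, 6826 and 5524. *Ku70-/-* library 1 therefore stood apart: each of its distinct joints was listed 142 times on average, against 10.98 and 13.98 times in libraries 2 and 3. Its junction total is not among those the study lists for this bait. Distinct WT signal joints were listed 177, 213 and 218 times on average.

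Signal joints in the *Ku70-/-* libraries had lost bases at both ends, whereas nearly all WT copies had lost none. Neither end was trimmed in 95.9%, 95.8% and 95.9% of WT signal joints, and in 11.4%, 4.86% and 4.55% of those in *Ku70-/-* (95.9% ± 0.0698 against 6.94% ± 3.88; SD, n = 3 libraries each). Both ends were trimmed in 0.630%, 0.513% and 0.507% of WT joints and in 78.4%, 76.9% and 77.4% of *Ku70-/-* joints. No WT library overlapped a *Ku70-/-* library in either measure. The bait end was trimmed in 87.3% ± 0.591 of *Ku70-/-* joints and 2.91% ± 0.114 of WT joints, and the Vκ prey end in 83.3% ± 2.90 and 1.75% ± 0.0486. Each of these 4 differences had p = 0.1 in an exact two-sided permutation test over libraries, the smallest p that 3 against 3 can give (adjusted p = 0.125 over the 10 comparisons made).

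Counting each distinct junction once left both ends trimmed in 80.9%, 83.5% and 83.5% of *Ku70-/-* signal joints and in 14.8%, 12.7% and 12.5% of those in WT. The 3 *Ku70-/-* libraries thus lay close together, although their numbers of distinct joints differed widely, and apart from all WT libraries. The untrimmed share of distinct joints was 2.29%, 1.85% and 1.92% in *Ku70-/-* and 13.7%, 13.5% and 14.2% in WT. Leaving out length-neutral insertions, which are described below, moved the means from 13.8% to 22.7% in WT and from 2.02% to 2.05% in *Ku70-/-*, and the difference from -11.8 to -20.6 percentage points. In WT that share is far below the share of copies, because a joint made many times at a Vκ site counts as a single distinct junction. For the same reason the high untrimmed share of copies in *Ku70-/-* library 1 came from few junctions: exact heptamer-to-heptamer joints made up 9.93% of its copies and lay at 5 sites, against 71 and 55 sites for 3.34% and 3.15% of copies in libraries 2 and 3. In every WT library they lay at 120 sites.

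The losses were of similar size at both ends without Ku70. The median bait end of copies had lost 10 bases in all 3 *Ku70-/-* libraries, and the median prey end had lost 8, 9 and 9. Among distinct joints the medians were 11, 12 and 12 bases for the bait and 10, 11 and 11 for the prey. All WT medians of copies were 0. Net loss, the bases missing from a joint against the untrimmed joint however shared bases are assigned, had a median of 20, 24 and 24 bases in distinct *Ku70-/-* joints and of 0 in WT. It exceeded 40 bases in 20.7%, 26.4% and 26.8% of distinct *Ku70-/-* joints and in 1.12%, 0.466% and 0.686% of those in WT. The largest bait loss listed in any library was 43 bases, because a read must hold bait sequence past the primer, so longer bait losses could not be seen. Prey losses ran to 197 bases, within the 200-bp window around a site.

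**Figure D1:**
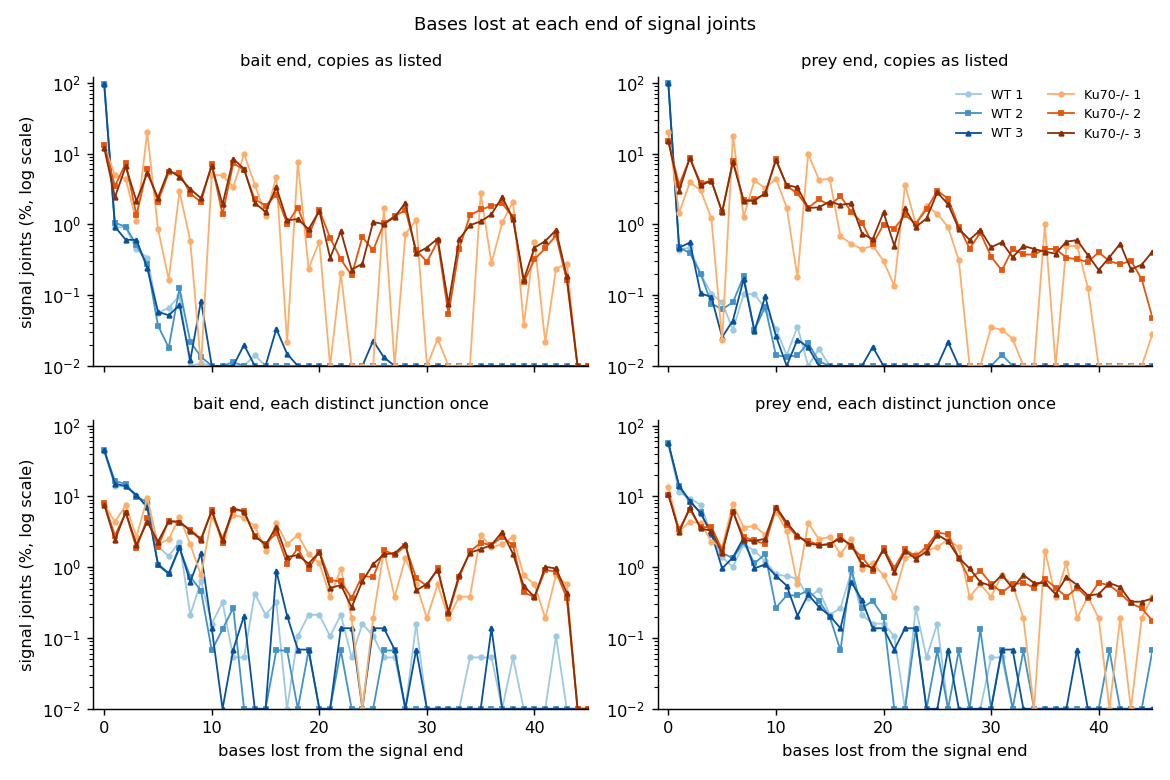
Bases lost (x axis) from the bait end (left) and the Vκ prey end (right) of signal joints, as a percentage of the signal joints of each library on a log axis, for copies (top) and distinct junctions (bottom); points under 0.01% are drawn at 0.01%. WT libraries (blue) fall steeply over the first bases, with scattered joints beyond, and *Ku70-/-* libraries (orange) extend to the 43-base limit of the bait with peaks shared by libraries 2 and 3.

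More bait losses ended inside the spacer (23 bp) than in the heptamer (7 bp) or the nonamer (9 bp), although per base the heptamer held the most. Of distinct *Ku70-/-* signal joints, 7.65%, 7.97% and 7.68% kept the whole bait end, 33.8%, 26.3% and 26.0% ended within its heptamer, 44.6%, 50.2% and 50.9% within the spacer and 11.9%, 13.0% and 12.7% within the nonamer. Of copies, 34.2%, 31.0% and 29.3% ended within the heptamer and 45.4%, 45.1% and 48.0% within the spacer. In WT 50.4 to 53.4% of distinct joints ended within the bait heptamer and 2.07 to 4.53% within the spacer. On the prey side, with a 12-bp spacer taken for every Vκ site, 14.1%, 14.4% and 15.2% of distinct *Ku70-/-* joints had lost the whole signal sequence, against 0.480 to 0.850% in WT. RAG1/2 needs the heptamer to cut a signal sequence.

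The bait ends were not spread evenly. After the intact end (7.76% of distinct *Ku70-/-* joints on average), the most frequent losses were 2 bases (6.45%), 4 bases (6.30%), 12 bases (6.29%), 10 bases (5.93%) and 13 bases (5.76%). Library 1 differed from the others at the loss of 4 bases, which leaves only CAC of the heptamer and held 9.56% of distinct joints in library 1 and 4.97% and 4.36% in libraries 2 and 3, and 19.9%, 6.08% and 5.32% of copies. On the prey side the intact end led with 11.6% of distinct joints, followed by losses of 10 bases (6.70%), 6 bases (6.69%) and 2 bases (5.99%).

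Trimming of the bait and of the prey went together in the same *Ku70-/-* joint, and deep losses at both ends exceeded the product of their shares in both genotypes. In distinct *Ku70-/-* signal joints with an intact bait end, the median prey loss was 2.5, 4 and 3 bases. It was 26, 24 and 25 bases where the bait had lost over 20. A loss over 20 bases at both ends held 11.9%, 14.9% and 14.5% of distinct joints, which is 2.31, 2.08 and 2.07 times the product of the shares of each end. The pairing of an intact bait with a prey loss over 20 bases was 0.194, 0.226 and 0.242 times that product. WT joints with a trimmed bait were also more often trimmed at the prey when counted as copies: 21.4%, 17.1% and 18.2% of them were, against 1.16%, 1.22% and 1.33% of those with an intact bait. A loss over 20 bases at both ends held 0.159%, 0.133% and 0.343% of distinct WT joints, 9.09, 71.5 and 46.7 times the product, from few joints. Spearman's rho of bait and prey loss across distinct joints was 0.41, 0.47 and 0.46 in *Ku70-/-* and -0.23, -0.29 and -0.26 in WT, as a description, since joints of a library share cells and sites. For copies it was 0.43, 0.53 and 0.50 against 0.06, 0.02 and 0.03.

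**Figure D2:**
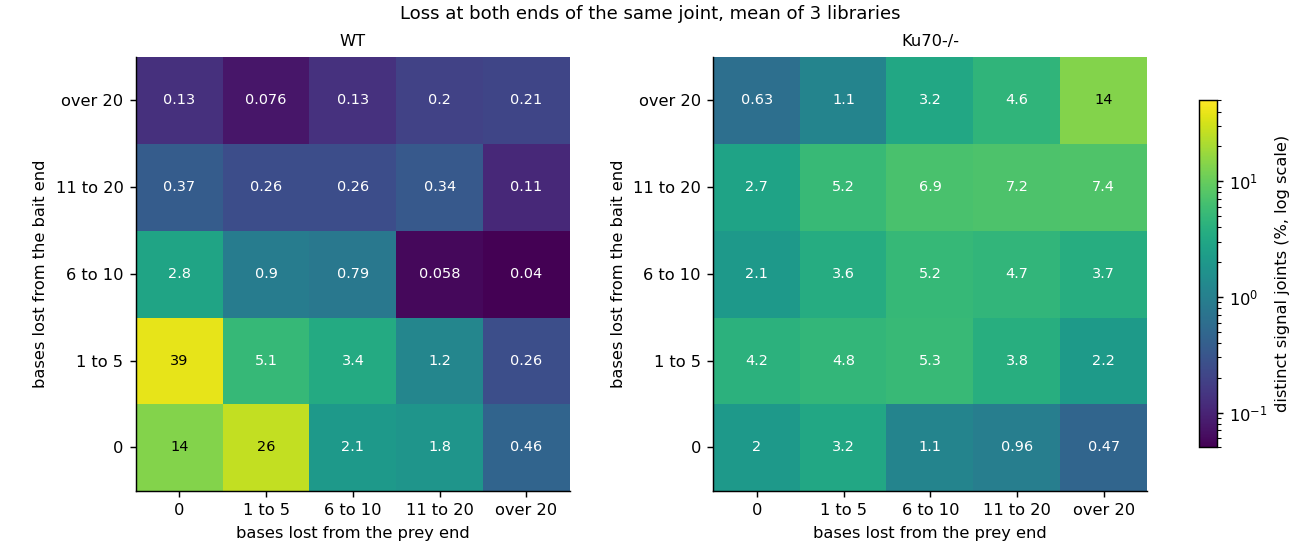
Percentage of distinct signal joints (colour on a log scale, values printed as means of 3 libraries) by bases lost from the bait end (y axis) and from the prey end (x axis). WT joints lie in the corner with a loss of at most 5 bases at one end, and the *Ku70-/-* joints spread along the diagonal, with 13.8% beyond 20 bases at both ends.

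The negative rho in WT goes with a feature of its distinct list. In WT, 38.9% of distinct signal joints had lost 1 to 5 bases from the bait and none from the prey, and 26.3% the reverse. Net loss was 0 in 44.9%, 56.8% and 54.8% of distinct WT joints, so the joint was as long as the untrimmed one. Such joints made up 4.78%, 1.57% and 1.41% of distinct *Ku70-/-* joints. They are taken up with the insertions below.

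Microhomology was more frequent without Ku70 over all signal joints, while nearly all WT copies were untrimmed. Shares by the bases lost are given below. An overlap of bait and prey over 1 bp was present in 24.03%, 20.1% and 21.8% of *Ku70-/-* signal joints and 0.381%, 0.410% and 0.263% of WT signal joints (22.0% ± 1.96 against 0.351% ± 0.0780; exact permutation p = 0.1, adjusted p = 0.125). Among distinct joints the shares were 22.6%, 18.7% and 20.7% in *Ku70-/-* and 8.87%, 5.996% and 5.28% in WT, again without overlap between the groups (exact permutation p = 0.1, adjusted p = 0.111). Direct joints, with neither overlap nor insertion, were still the largest class of copies in each *Ku70-/-* library (54.0%, 59.1% and 58.2%). Among distinct joints they were the largest class in libraries 2 and 3, with 54.5% and 51.6%. In library 1 they held 32.5% of distinct joints and insertions 34.4%. Those 180 distinct insertions made up only 308 of its 74245 copies. Long overlaps were few: those of 6 bp or more made up 4.02%, 2.09% and 2.39% of distinct *Ku70-/-* joints.

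Microhomology over 1 bp did not change in 1 direction with the depth of trimming. It was present in 32.8%, 24.3% and 25.2% of distinct *Ku70-/-* joints that had lost 1 to 5 bases, and in 42.4%, 21.7% and 24.7% of copies. In distinct *Ku70-/-* joints that had lost 6 to 10 bases from both ends together, an overlap over 1 bp was present in 28.3%, 30.7% and 33.5%. The share was 24.5%, 16.6% and 18.2% after a loss of 11 to 20 bases, 14.8%, 15.5% and 16.8% after 21 to 40 and 18.8%, 16.5% and 19.5% beyond 40. All 3 libraries were lower at 21 to 40 bases than at 6 to 10. Shared bases count as kept at both ends here, so a joint with an overlap can fall in a shallower class than by net loss. Shares by net loss were not taken. Copies in libraries 2 and 3 went from 31.2% and 36.5% at 6 to 10 bases to 15.99% and 19.7% beyond 40. In library 1, where few junctions hold many copies, they went from 22.1% to 36.1%. The overlap of a single base was present in 21.7%, 18.97% and 16.2% of distinct joints at 6 to 10 bases and in 14.3%, 21.7% and 22.3% beyond 40, and in 34.8%, 26.9% and 19.7% and then 15.4%, 26.01% and 26.3% of copies, so that the libraries did not move the same way. In WT, an overlap over 1 bp was present in 5.02%, 4.26% and 2.56% of distinct joints at 1 to 5 bases. Copies gave 3.81%, 5.63% and 1.88%, both below every *Ku70-/-* library. At 6 to 10 bases it was in 28.7%, 13.0% and 12.2% of 174, 131 and 123 distinct joints (copies 38.6%, 32.2% and 22.5%). At 11 to 20 it was in 13.8%, 8.89% and 20.5% (copies 8.86%, 18.2% and 24.9%). At 6 to 10 and 11 to 20 bases the genotypes overlapped. WT had few joints in the deeper classes, with 7 to 22 distinct joints beyond 40 bases.

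**Figure D3:**
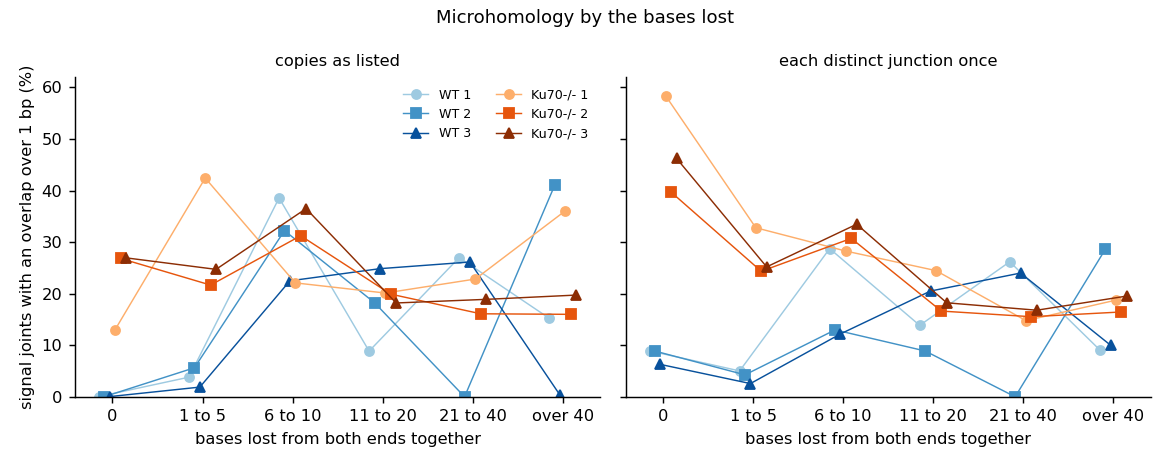
Signal joints with an overlap of bait and prey over 1 bp (y axis, %) by the bases lost from both ends together (x axis, shared bases counted as kept), per library. In distinct junctions the *Ku70-/-* libraries (orange) lie between 14.8 and 33.5% from 6 bases on. Among these classes they are highest at 6 to 10 bases. WT (blue) holds 174, 131 and 123 distinct joints at 6 to 10 bases, where the genotypes overlap. WT rests on few joints in the deeper classes, with 22, 7 and 10 distinct joints beyond 40 bases.

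The class with no base lost by position needs its own reading. Of the 12, 126 and 106 distinct *Ku70-/-* joints in it, 58.3%, 39.7% and 46.2% had an overlap over 1 bp, so that the joint held fewer bases than an untrimmed one. The Jκ1 heptamer, read toward the break, and the consensus Vκ heptamer, read away from it, share most of their bases, so that an alignment can run through both. With shared bases counted as lost from the prey, the untrimmed share of copies in *Ku70-/-* was 9.93%, 3.56% and 3.32%. Of the overlaps over 1 bp in distinct joints, 61.02%, 78.9% and 79.6% in *Ku70-/-* and 65.6 to 71.3% in WT were the same in every base in the reference at both ends.

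A few short overlaps recurred. The dinucleotide AC was the overlap in 15.3%, 14.3% and 15.0% of the distinct *Ku70-/-* overlaps over 1 bp, the most frequent in each library. CA was the overlap in 2.54%, 6.41% and 7.87%, TG in 5.08%, 5.004% and 4.11% and CAC in 9.32%, 2.81% and 2.27%, so that the place of CAC rests on library 1 with its 118 such overlaps. TAC held 3.54% on average, against 0.570% in WT. In WT, with 167, 90 and 77 such overlaps, TG held 9.58%, 10.0% and 7.79%, CCAC 11.98%, 7.78% and 7.79% and CAC 5.99%, 18.9% and 3.90%.

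No single structure dominated the distinct *Ku70-/-* joints. They formed 3661 combinations of bait loss, prey loss and overlap or gap, and the 6 most frequent are shown with an example read each, because they are the forms that recurred at many Vκ sites. Lines give the bases lost from bait and prey, the example site and the read from the bait side, with capitals for the heptamer bases that remain.
Untrimmed, Igkv1-135: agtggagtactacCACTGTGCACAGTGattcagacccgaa
Bait 7 and prey 1, AC shared, Igkv4-55: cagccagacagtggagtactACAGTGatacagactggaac
Bait 4 and prey 0, CAC shared, Igkv4-50: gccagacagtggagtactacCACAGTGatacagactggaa
Bait 2 and prey 6, direct, Igkv12-41: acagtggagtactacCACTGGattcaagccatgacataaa
Bait 0 and prey 2, direct, Igkv6-32: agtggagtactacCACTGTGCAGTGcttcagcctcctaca
Bait 2 and prey 0, direct, the site at chr6:68581956: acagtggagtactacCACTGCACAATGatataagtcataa

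Each of these 6 made up 0.685 to 0.997% of distinct *Ku70-/-* joints on average. The joint with CAC shared (1.53%, 0.381% and 0.344%) and the direct joint that lost 2 bait and 6 prey bases (1.53%, 0.352% and 0.344%) owe their place to library 1. The untrimmed structure was at 0.956%, 1.04% and 0.996% in the 3 *Ku70-/-* libraries and at 6.38%, 7.99% and 8.24% in WT. The joint with AC shared was found at 5, 48 and 39 sites and held 1.21%, 1.21% and 0.752% of *Ku70-/-* copies, against 0.0163%, 0.0661% and 0.00189% in WT. The joint with CAC shared leaves a single heptamer where the untrimmed joint has a pair. It held 3.04%, 0.643% and 0.794% of *Ku70-/-* copies and 0.0331%, 0.0585% and 0.00157% of those in WT. Of distinct WT joints it held 0.425%, 1.13% and 0.0686%, so the genotypes overlapped in distinct joints. The direct joint that lost 2 bait and 6 prey bases was at 8, 24 and 19 sites in *Ku70-/-*, and at 0, 3 and 0 sites in WT.

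WT distinct joints formed 573 combinations, and after the untrimmed form the most frequent were 2 in which as many bases were inserted as were lost. Both are shown because they differ from the untrimmed joint by bases within it, not by its length. Capitals again mark heptamer bases that remain, and the bases between them were read as inserted.
Bait 2, prey 0, inserted 2, Igkv1-135: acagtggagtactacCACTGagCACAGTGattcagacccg
Bait 0, prey 1, inserted 1, Igkv16-104: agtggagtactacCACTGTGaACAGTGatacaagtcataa
The first held 4.99%, 5.93% and 6.11% of distinct WT joints and 0.246%, 0.244% and 0.216% of copies. The second held 4.84%, 6.06% and 6.04% of distinct joints and 0.157%, 0.151% and 0.158% of copies.

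The kinds of insertion differed in share between the genotypes. An insertion of up to 20 bp was present in 1.64%, 2.15% and 1.78% of WT signal joints and 0.415%, 1.02% and 0.786% of those in *Ku70-/-* (1.86% ± 0.261 against 0.741% ± 0.307; exact permutation p = 0.1, adjusted p = 0.125). Among distinct joints the shares were 49.7%, 57.0% and 57.7% in WT and 34.4%, 9.30% and 10.2% in *Ku70-/-*. Across the libraries these distinct shares rose in the order of copies per distinct joint, so genotype and copy number cannot be told apart in them. Length-neutral insertions, with as many bases inserted as lost, made up 67.9%, 72.4% and 71.1% of the distinct WT insertions and 10.6%, 5.04% and 3.57% of those in *Ku70-/-*. Of the distinct length-neutral insertions in WT with no base kept past the break at either end, 76.4 to 78.1% differed from the untrimmed joint at 1 base. Those of 1 base can differ at no more than 1 base, so part of this share was fixed in advance. Copies gave 90.1 to 91.4% in WT and 88.2 to 95.2% in *Ku70-/-*. Length-neutral insertions numbered 3153, 3471 and 2919 WT copies, beside 318774, 306052 and 305000 copies with untrimmed ends. *Ku70-/-* had 51, 33 and 21, beside 8479, 3641 and 3514. Their lower share among *Ku70-/-* insertions therefore cannot be told apart from the lower number of untrimmed joints. Whether length-neutral joints are repair products or base changes in copies of the untrimmed joint was not tested. Without them the insertion share of copies was 0.693%, 1.06% and 0.865% in WT and 0.346%, 0.980% and 0.759% in *Ku70-/-*, and the groups overlapped (exact permutation p = 0.5). Insertions other than length-neutral were in 15.9%, 15.7% and 16.7% of distinct WT joints and in 30.8%, 8.83% and 9.79% of those in *Ku70-/-*, where library 1 lay above WT and libraries 2 and 3 below (exact permutation p = 1).

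Insertions of up to 20 bp that were longer than the bases lost were found in WT only. They numbered 91, 65 and 74 distinct joints in WT, which is 4.84%, 4.33% and 5.08% of distinct signal joints, and their inserted bases had a median length of 2. In *Ku70-/-* there were 0 among 180, 635 and 561 distinct insertions, which allows shares of up to 1.67%, 0.472% and 0.535% of insertions (3 counts, counting error only). The difference in their share of distinct signal joints had an exact permutation p = 0.1 (adjusted p = 0.12 over 6 measures chosen after values were seen). Counted by net length, with longer insertions and alignments that run past the break included, joints longer than the untrimmed one made up 0, 0.220% and 0.181% of distinct *Ku70-/-* joints and 8.02%, 5.93% and 6.73% of those in WT. No *Ku70-/-* insertion of up to 20 bp lay at a pair of untrimmed ends, whereas 78, 50 and 56 distinct WT insertions did. Joints with untrimmed ends were fewer in *Ku70-/-*, at 12, 126 and 106 distinct joints (8479, 3641 and 3514 copies). WT had 258, 203 and 207 (318774, 306052 and 305000 copies). Of those WT copies, 0.247%, 0.497% and 0.344% had an insertion. An insertion of up to 20 bp cannot exceed a loss of over 20 bases, so the 0 counts are not independent of the deeper trimming. The *Ku70-/-* insertions that were shorter than the loss had a median length of 2 bases after a median loss of 22, 24 and 23 bases. A was their most frequent base, at 40.9%, 35.7% and 32.8% of the inserted bases. G made up 16.8%, 16.97% and 20.2% of those bases. In the distinct WT insertions shorter than the loss, A was also the most frequent base, at 36.3%, 41.7% and 40.5%. The lead of A was therefore shared by both genotypes.

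**Figure D4:**
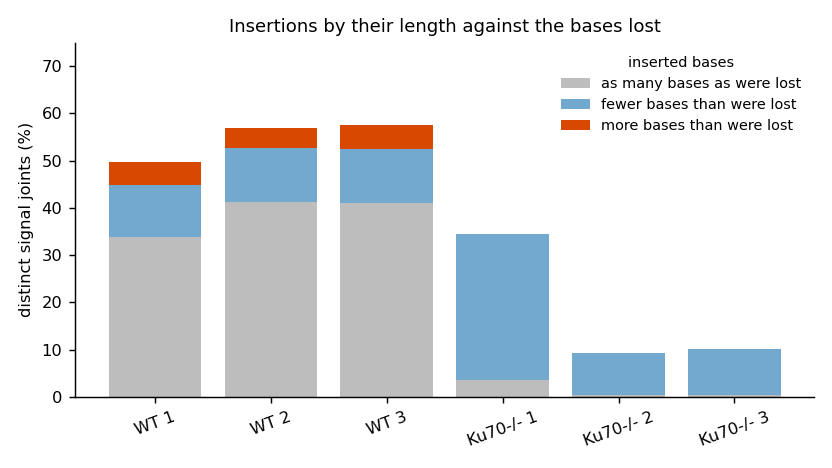
Distinct signal joints with an insertion of up to 20 bp, per library (bars, % of distinct signal joints), split by whether the insertion held as many, fewer or more bases than both ends had lost. Insertions with more bases than were lost are present in the 3 WT libraries (4.33 to 5.08%) and at 0 in the 3 *Ku70-/-* libraries.

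Deletional and inversional Vκ sites gave signal joints of like structure in *Ku70-/-* libraries 2 and 3. The medians of distinct joints in libraries 2 and 3 were 12 bases lost from the bait and 11 from the prey at deletional sites, and 11 and 10 at inversional sites. In these libraries both ends were trimmed in 84.4% and 84.0% of distinct joints at deletional sites and 82.8% and 83.1% at inversional sites. An overlap over 1 bp was present in 19.1% and 21% against 18.4% and 20.5%. In library 1 that overlap was present in 13.6% of 257 distinct joints at deletional and 31.2% of 266 at inversional sites. The untrimmed share of copies, deletional minus inversional, was 15.4, -0.961 and 0.00238 percentage points in *Ku70-/-* and 0.595, 0.500 and 0.991 in WT (exact permutation p = 1, adjusted p = 1). The value of library 1 came from its few junctions: at Igkv1-135 alone, 42.0% of its 8705 signal joints were untrimmed, all of them copies of 1 distinct junction. Without library 1 the difference between the genotypes turned from 4.13 to -1.17 points. Counted once per distinct junction, the deletional minus inversional difference was 1.11, 2.63 and 1.22 points in WT and -0.686, -0.125 and 0.0499 in *Ku70-/-*, which did not overlap (exact permutation p = 0.1, adjusted p = 0.111). The untrimmed share of distinct joints at either kind of site was 1.77 to 2.63% in *Ku70-/-* and 12.4 to 15% in WT. A difference in points therefore has less room in *Ku70-/-*.

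A larger difference between deletional and inversional sites in *Ku70-/-* lay in the share of joints that were hybrid. At deletional sites hybrid joints made up 14.4%, 25.6% and 27.2% of joints, and at inversional sites 63.0%, 58.1% and 59.1%. In WT they made up 1.30%, 1.34% and 1.96% and 1.93%, 1.87% and 1.90%. Hybrid joints were thus the larger class at inversional sites and the smaller class at deletional sites in each *Ku70-/-* library. Each kind of site differed between the genotypes without overlap (exact permutation p = 0.1, adjusted p = 0.125). The inversional minus deletional difference was 48.6, 32.4 and 31.9 points in *Ku70-/-* and 0.629, 0.525 and -0.0535 in WT (exact permutation p = 0.1, adjusted p = 0.12, a measure chosen after values were seen). Distinct junctions gave 20.4%, 28.9% and 29.0% at deletional sites and 57.8%, 57.7% and 57.3% at inversional sites in *Ku70-/-*, and 10.2 to 18.1% and 15.2 to 18.4% in WT. With length-neutral insertions left out, the distinct means at deletional sites were 26.6% in *Ku70-/-* and 21.4% in WT, and the libraries overlapped (exact permutation p = 0.3).

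**Figure D5:**
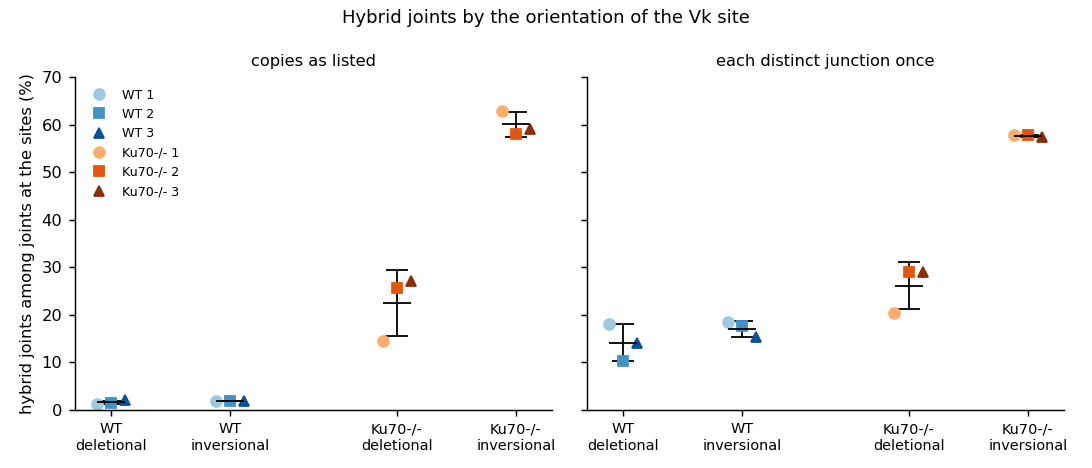
Hybrid joints as a percentage of the joints at deletional and inversional Vκ sites, one point per library, with the mean and SD of 3 libraries in black. In *Ku70-/-* the inversional sites (57.3 to 63.0%) lie above the deletional sites (14.4 to 29.0%) in every library, and in WT the copies lie at 1.30 to 1.96% at both.

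Signal joints at deletional sites and hybrid joints at inversional sites both close the excised DNA into a circle. Such joints made up 70.1%, 63.4% and 63.9% of the joints at Vκ sites in *Ku70-/-* and 49.8%, 48.8% and 49.3% in WT (65.8% ± 3.72 against 49.3% ± 0.502; exact permutation p = 0.1, adjusted p = 0.12, a measure chosen after values were seen). Distinct junctions gave 65.2%, 61.9% and 61.7% against 44.7%, 47.8% and 46.0%. Deletional sites held 51.5%, 46.5% and 49.0% of signal joints in *Ku70-/-* and 49.6%, 48.6% and 49.2% in WT (exact permutation p = 0.9, adjusted p = 1), but 9.51%, 17.8% and 19.9% of hybrid joints in *Ku70-/-* and 39.7%, 40.3% and 50.0% in WT. In the cycling libraries deletional sites held 9.38 to 16.01% of the signal joints in *Ku70-/-* and 12.9 to 14.4% in WT, lower than in every arrested library. The arrested order did not hold there. Without the 5 Igkv3 sites described below, hybrid joints made up 66.4%, 60.3% and 62.1% of cycling *Ku70-/-* joints at deletional sites, and 31.6 to 39.2% at all sites. Circle-closing joints were 25.3%, 28.8% and 33.0% in cycling *Ku70-/-* and 11.3 to 13.0% in cycling WT.

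Single sites followed the same order. Of the inversional sites with at least 100 joints, hybrids exceeded 50% at 25 of 45, 46 of 62 and 51 of 61 in *Ku70-/-*, and of the deletional sites at 3 of 22, 1 of 33 and 3 of 35. Median hybrid shares over sites were 65.2%, 58.1% and 62.1% at inversional and 6.87%, 23.4% and 26.9% at deletional sites. The untrimmed joint was the most frequent signal joint at 106 of 108, 105 of 107 and 106 of 108 sites with at least 100 signal joints in WT, and at 3 of 48, 13 of 84 and 4 of 83 in *Ku70-/-*.

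Hybrid joints used the same bait end, with like median losses but more deep ones. The median bait loss in distinct hybrid joints was 12 bases in each *Ku70-/-* library, beside 11, 12 and 12 in signal joints. Losses over 20 bases were more frequent in hybrid joints: of distinct junctions at deletional sites 40.9%, 30.8% and 31.1% had one, against 21.4%, 27.8% and 28.04% of signal joints, and at inversional sites 26.1%, 28.8% and 29.1% against 18.4%, 23.2% and 22.3%. Coding ends had lost a median of 12.5, 17 and 16 bases, beside 10, 11 and 11 at the signal prey ends. An overlap over 1 bp was present in 20.7%, 17.9% and 19.9% of distinct hybrid joints. In WT the distinct hybrid joints had lost a median of 2 bases from the bait and 2 from the coding end, and 23.5 to 26.6% had an overlap over 1 bp.

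The 5 sites with the most distinct signal joints in *Ku70-/-* were Igkv1-135 (604 in the 3 libraries together), Igkv16-104 (469), Igkv6-17 (411), Igkv8-16 (386) and the annotated Vκ gene ENSMUSG00000076510.2 at chr6:67864047 (341). All have the consensus heptamer, and Igkv8-16 alone is inversional. In libraries 2 and 3 the untrimmed share of copies at these sites ran from 0 to 7%, against 81.7 to 98.5% over the 3 WT libraries. Both ends were trimmed in 83.1 to 90.5% of their distinct joints in libraries 2 and 3, and the median losses were 11 to 13 bases at the bait and 10 to 15 at the prey. The overlap over 1 bp ran from 15.6 to 22.3%. Igkv8-16 had hybrid joints in 28.2% and 11.9% of its distinct joints in libraries 2 and 3, below the 57.7% and 57.3% of all inversional sites, which follows in part from how the 5 were chosen, by many signal joints. In library 1 each of the 5 sites had only 9 to 42 distinct signal joints.

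Use of single Vκ sites was compared as signal joints per 1000 at Vκ sites. Of 111 sites tested with limma, 5 passed an adjusted p of 0.05 (4.5% of sites, all lower in *Ku70-/-*), and 45 did not overlap between the groups (40.5%). The 5 were Igkv3-7, a site at chr6:70613890 without an annotated gene, Igkv3-4, Igkv3-3 and Igkv3-2, all deletional and next to each other between chr6:70558031 and chr6:70649062. They met the filter of at least 50 joints per library on average through their WT counts alone. In *Ku70-/-* each held 0 or 1 signal joints per library, so the limma values there rest mostly on the 1 junction added before log2. The counts are therefore given in place of p-values. A 0 in library 1 says little by itself, since it also had 0 at other sites. At Igkv14-130, for example, it had 0 where libraries 2 and 3 had 586 and 885. Igkv3-2 had 9624, 7278 and 6652 signal joints in WT and 0, 1 and 0 in *Ku70-/-*. The Igkv3-7 counts were 5180, 4426 and 4968 in WT and 0 in each *Ku70-/-* library. This is at least 1134-fold lower per signal joint against a floor of 3 counts over the group. The Igkv3-4 counts were 3188, 3433 and 2715 in WT and 0 in each *Ku70-/-* library.

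Junctions of any kind were at or near 0 there. The stretch from Igkv3-7 to Igkv3-2, with 200 bp on either side, held 17226 to 21086 junctions of any kind in the WT libraries and 0, 7 and 0 in *Ku70-/-*. In cycling cells it held 336 to 379 in WT and 0 in each *Ku70-/-* library. The neighbouring Igkv3-1, closer to Jκ, had 841, 413 and 281 joints in the arrested *Ku70-/-* libraries, of which 0, 307 and 176 were signal joints. On the far side the edge was less sharp. The nearest site tested there, at chr6:70539447 and without an annotated gene, had 0, 0 and 13 signal joints in *Ku70-/-* and 144, 80 and 115 in WT. Next to it, Igkv3-9 had 0, 27 and 96 signal joints in *Ku70-/-* and 286, 458 and 175 in WT. Both sites also met the filter through their WT counts, so counts are given in place of limma values. A site at chr6:70545798, between these and Igkv3-7, had too few joints to be tested. Whether this stretch is present in the *Ku70-/-* clone was not tested. Since its 5 sites are deletional, they bear on orientation. Without them the deletional share of signal joints was 46.2%, 45.5% and 46.3% in WT and 51.5%, 46.5% and 49.0% in *Ku70-/-*, which no longer overlapped. Leaving out deletional sites that are near 0 in *Ku70-/-* could only lower the WT share, so the direction of this shift was fixed in advance. Hybrid joints at deletional sites were then 1.42%, 1.48% and 2.16% in WT, and 14.4%, 25.6% and 27.2% in *Ku70-/-*.

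*Ku70-/-* library 1 also decided how many sites passed. Without it 48 of 111 sites passed, 29 lower and 19 higher in *Ku70-/-*, and the same 5 were among them. With each distinct junction counted once 19 passed, 15 lower and 4 higher, again with the 5. These 5 sites had next to no signal joints in any *Ku70-/-* library and many in WT. Their return was therefore largely fixed in advance and is no agreement between settings. Distinct signal joints recurred between libraries: 20.8% of those in *Ku70-/-* library 2 were also in library 3, and 25.7% the other way, while 17.02% and 14.7% of those in library 1 were in libraries 2 and 3. In WT 44.3 to 57.2% of one library's distinct joints were in another.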

How the data were processed

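The HTGTS-JoinT-seq lists give 1 junction per line. Before they deposited them, the authors took each library to 500000 read pairs and mapped to mm9 with Bowtie2 (processing notes; versions are not given in the sources used here), keeping copies. The deposited columns used, other positions that are neither counts nor scores, are the prey position and strand, the bait end, and the read positions of both alignments. Here, Vκ break sites were called from the 6 arrested WT libraries with ligase inhibitors, which enter no comparison: at least 30 signal end junctions at a position, none higher within 50 bp, CAC next (shift of 1 base allowed). Junctions belong to the nearest site within 200 bp. Overlap of bait and prey was taken as microhomology, a gap of up to 20 bp as insertion, and an end as trimmed from 1 base lost. Genes came from the GENCODE vM1 annotation, made for mm9's assembly (NCBIM37). Exact two-sided permutation tests compared libraries, the unit of replication. The study's figure legends describe its experiments as repeated independently. The labels do not tie single libraries to cultures, so p-values measure the spread between these libraries. Site use was fitted with limma 3.58.1 in R 4.3.3 on log2 signal joints per 1000 with 1 junction added, for sites with at least 50 joints per library on average. The fit was tested on simulated data that gave every library the spread of the WT libraries. That test does not cover the wider spread that library 1 brings to *Ku70-/-*. Named sites are the 10 largest rises and falls past the threshold without overlap between groups (only 5 passed) and the 5 with the most distinct *Ku70-/-* signal joints; named structures are the 6 most frequent in *Ku70-/-* and 3 in WT. The comparison, sites and lists were chosen with earlier results of these data known. Alternatives covered counting, sites, window, trimming rules, overlap and insertion limits, filters and leaving out libraries. Intervals and floors cover counting error only; copies are not independent molecules.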

Additional observations from a re-analysis of the deposited data

How the results depend on the processing

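Of 150 alternative values for 11 results, 136 kept their direction and whether the groups overlapped, or stayed within 1.5 times the number of sites. Losses at both ends, microhomology and the hybrid share at inversional sites did so in every alternative tried. The deletional share of signal joints (*Ku70-/-* minus WT, -0.143 percentage points) turned to 2.19 with distinct junctions, 2.68 with those of length-neutral insertion also left out and 2.98 without the 5 Igkv3 sites. It ran from -1.39 to 1.12 when each library in turn was left out. The untrimmed share at deletional minus inversional sites (4.13) turned to -1.91 and -3.96 with distinct junctions, with and without length-neutral insertions, and ran from -1.17 to 7.03 when each library was left out. With joints of length-neutral insertion left out of the total as well, the insertion share differed by -0.187 points in copies and -9.55 in distinct junctions, and the hybrid share at deletional sites by 5.20 in distinct junctions, all with overlap between the groups. Sites past the threshold numbered 19 with distinct junctions, 13 with signal and hybrid joints together, and 5 to 48 with each library left out. Leaving out length-neutral insertions and the Igkv3 sites was chosen after seeing the data. Except where fewer joints or libraries enter by construction, the cause was not tested. No paired analysis was possible because the labels give no replicate numbers. Losses past the 43-base limit of the bait, and rare classes in *Ku70-/-* library 1 with its 523 distinct signal joints, were beyond what the libraries can show.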
